A study of Arabidopsis thaliana with 12 samples.

Results

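EXPA8 and EXLA1 are 2 genes of the expansin superfamily of Arabidopsis thaliana, out of 13350 genes that the platform annotation paired with a probe set of their own. They were chosen by their measured changes on chilling, EXPA8 for a much lower and EXLA1 for a much higher signal, so their levels and chilling changes are given here as a description and were not tested. EXPA8 is the locus AT2G40610 and EXLA1 the locus AT3G45970, and each is read by 1 probe set. EXLA1 lies next to EXLA3, a second expansin-like gene, among the protein-coding genes of the RefSeq table, and the other neighbour of EXLA1 is the histone gene HTB9. EXPA8 has no expansin gene beside it.

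Expansins are secreted proteins that loosen the contacts between cellulose and the polysaccharides around it without cutting them, which lets turgor stretch the wall of a growing cell. EXPA8 belongs to the alpha-expansins, the class on which acid-induced wall extension was established. EXLA1 belongs to the expansin-like A group, whose proteins carry both expansin domains but for which wall-loosening activity has not been shown. The amount of expansin transcript is commonly read as one sign of how far a tissue is prepared for cell enlargement.

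RNA from leaves of 2-week-old seedlings was hybridised to 12 Affymetrix arrays in 6 groups of 2. The groups are the rdm4 mutant and the wild type (WT), each before chilling (0 h) and after 3 h and 48 h at 4 °C. The RDM4 protein binds RNA polymerase II and takes part in DNA methylation directed by small RNAs. Plants had been raised on plates with a 16 h day at 23 °C and an 8 h night at 18 °C. RNA was taken from leaves of 30 or more seedlings of a plate, and the replicates came from separate growth chambers. The group names follow the array titles. The titles give the wild type as C24 while other fields give Col, a field of the mutant arrays reads 35S::RDM4, an overexpression construct, and the free-text notes of the second replicates name treatments other than those in the titles. Unchilled plants were taken at 0 h only, so a chilling change cannot be told apart from one of age, nor, at 3 h, from one of time of day.

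The arrays of a pair agreed closely, with r across probe sets from 0.997 to 0.999. The 3 measured leaf markers were bright in every group, with group means of RCA, the Rubisco activase gene, between 13.69 and 13.96 on the log2 scale. The dehydrin gene LTI30, a classic cold-induced gene, was higher at 48 h than at 0 h by 3.95 in rdm4 and by 3.62 in WT. It was 1 of 4 cold genes listed, with COR47, COR15A and COR15B. All 4 were called higher (limma, adjusted p under 0.05) at 48 h under both labels (22.8% of all probe sets in rdm4, 24.6% in WT), and at 3 h in rdm4 (17.1%). In WT at 3 h LTI30 and COR47 were called higher (23.1%). There COR15B was not called at 0.10, and COR15A was called lower at -0.23 (23.7%). The genotype labels behaved unevenly over time. NRPC1, which encodes the largest subunit of RNA polymerase III, was higher in rdm4 than in WT by 1.77 at 0 h, lower at 3 h with a difference of -1.85, and higher again by 1.71 at 48 h. Of 81 probe sets with a genotype difference of at least 2-fold and of 1 sign both before chilling and at 48 h, 73 had a called difference of the other sign at 3 h. The 73 include EXLA1, but its large chilling change lies in the WT arrays at 0 h and 3 h. Its place among them is therefore a description and carries no test. EXPA8 is not among the 73. Transcripts of RDM4 itself were not analysed here. Every result at 3 h that depends on a genotype label is therefore given as one of the arrays that carry that label. For EXPA8 and EXLA1 the mean change over both labels is given too, which does not depend on how the 3 h arrays were labelled.

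EXPA8 was lower at each later time under both labels. In rdm4 its log2 signals were 9.16 and 9.17 at 0 h, 7.92 and 7.93 at 3 h, and 4.68 and 5.18 at 48 h. In WT they were 9.92 and 9.91 at 0 h, 7.82 and 7.81 at 3 h, and 5.74 and 5.27 at 48 h. The 3 times did not overlap under either label, and the 2 arrays of a pair lay within a few hundredths of each other at 0 h and 3 h but about 0.5 apart at 48 h.

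**Figure D1:**
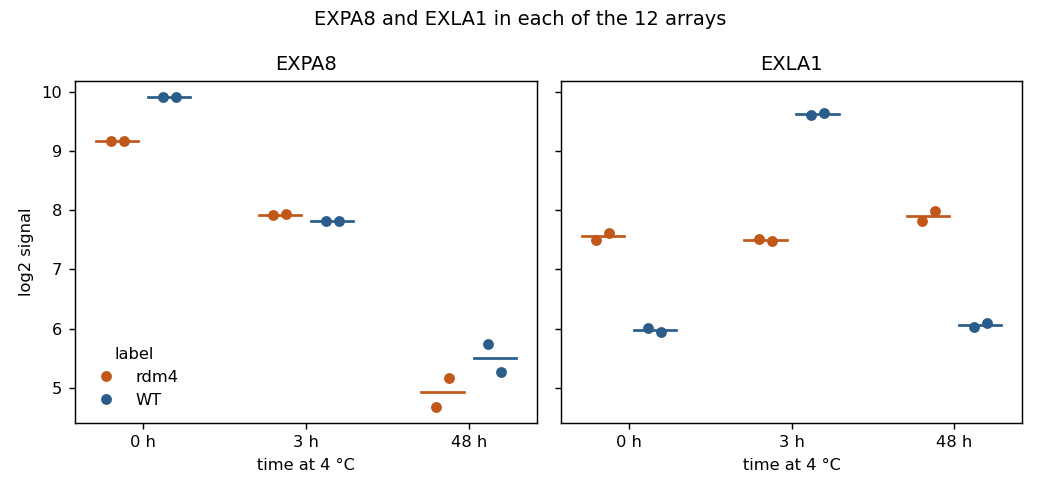
Log2 signal (y axis, per array) of EXPA8 (left) and EXLA1 (right) at 0, 3 and 48 h at 4 °C (x axis), with rdm4 left of WT at each time. Each point is 1 array and each bar the mean of 2. EXPA8 steps down under both labels, while EXLA1 is highest in the WT arrays at 3 h, at 9.61 and 9.64. Heights are not comparable between the 2 genes, which are read by different probes.

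At 48 h the EXPA8 signal was lower than at 0 h by -4.24 ± 0.15 in rdm4 and by -4.40 ± 0.15 in WT on the log2 scale (SE, 2 arrays per group), that is 18.8-fold in rdm4 and 21.2-fold in WT. These were the 9th and the 8th lowest changes among 22746 probe sets. At 3 h the difference from 0 h was -1.24 ± 0.15 in rdm4 and -2.10 ± 0.15 in WT, with a mean over both labels of -1.67 ± 0.11. Over the later interval, 48 h against 3 h, it was -3.00 in rdm4 and -2.31 in WT, so the totals at 48 h were close for the 2 labels while the parts reached by 3 h were not. The response of rdm4 minus that of WT was 0.86 ± 0.21 at 3 h and 0.17 ± 0.21 at 48 h.

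At 0 h EXPA8 was bright, at the 86.6th percentile of probe sets in rdm4 and the 92.0th in WT. At 48 h it had come down to the 33.1st percentile in rdm4 and the 40.4th in WT, and the lower rdm4 array stood at the 29.4th. Background was not measured, so the size of a change that ends this low is uncertain. In these leaf samples a lower signal per cell and a smaller share of the cells that express the gene cannot be told apart. The GAPDH control probe sets, whose 3′ signal less 5′ signal reflects RNA integrity, differed by 0.72 ± 0.11 (SD, n = 2), 0.79 ± 0.05 and 0.57 ± 0.05 in rdm4 at 0, 3 and 48 h, and 0.92 ± 0.08, 0.67 ± 0.07 and 0.54 ± 0.03 in WT. Of the 3 controls, GAPDH alone was lowest at 48 h under both labels. The same difference for actin ran the other way, at 0.41, 0.51 and 0.61 in rdm4 and 0.47, 0.57 and 0.61 in WT, and for ubiquitin it lay between 0.998 and 1.064 in all groups. The leaf marker LHCB4.2, a light-harvesting protein gene, also fell at 48 h, by 1.77 in rdm4 and by 1.11 in WT, and RCA by 0.20 in rdm4 and 0.22 in WT. LHCB4.1, the third leaf marker measured, fell by 0.28 in WT and was at -0.13 in rdm4, where it was not called. The part of these in the EXPA8 values was not tested.

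The difference between the genotypes was not itself used to choose the genes, but it is taken from the same arrays. The genotype differences of EXPA8 and EXLA1 are therefore given as a description with no test. All tests were made with limma over 22746 probe sets, with Benjamini-Hochberg adjustment, and a probe set with an adjusted p under 0.05 is called. EXPA8 was lower in rdm4 than in WT before chilling, with 9.16 ± 0.004 in rdm4 and 9.91 ± 0.006 in WT (SD, n = 2 each). The log2 difference was -0.75 ± 0.15 (SE), a mean level 1.68-fold lower in rdm4. The arrays of the 2 groups did not overlap. At this time 13.7% of all probe sets were called lower in rdm4 and 16.1% higher.

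At 3 h EXPA8 averaged 7.92 ± 0.01 in rdm4 and 7.81 ± 0.003 in WT. The difference was 0.11 ± 0.15 (SE). The 2 pairs did not overlap, but the spread behind this SE is shared by all groups and is set mainly by the wider 48 h pairs. At 48 h EXPA8 averaged 4.93 ± 0.35 in rdm4 and 5.51 ± 0.33 in WT, a difference of -0.58 ± 0.15. The size of this difference rests on single arrays. Without rdm4 48 h replicate 1 it was -0.33, and without WT 48 h replicate 1 it was -0.35. With only the 4 arrays at 48 h fitted its SE was 0.195.

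EXLA1 behaved differently: its signal peaked in the arrays labelled WT at 3 h and moved little in those labelled rdm4. In rdm4 the log2 signals were 7.50 and 7.62 at 0 h, 7.51 and 7.48 at 3 h, and 7.81 and 7.99 at 48 h. In WT they were 6.01 and 5.95 at 0 h, 9.61 and 9.64 at 3 h, and 6.04 and 6.10 at 48 h. The 2 WT arrays at 3 h stood above all 10 others, the 4 WT arrays at 0 h and 48 h stood below them, and the 6 rdm4 arrays lay between.

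In WT the EXLA1 signal at 3 h was higher than at 0 h by 3.64 ± 0.08 on the log2 scale, or 12.5-fold, the 15th highest change among all probe sets. From 3 h to 48 h it came down again by -3.56 ± 0.08, and at 48 h it was 0.09 ± 0.08 from its level at 0 h. In rdm4 the 3 h signal differed from that at 0 h by -0.06 ± 0.08 and the 48 h signal by 0.35 ± 0.08. Averaged over both labels the change was 1.79 ± 0.05 at 3 h and 0.22 ± 0.05 at 48 h, and the rdm4 response minus that of WT was -3.70 ± 0.11 at 3 h and 0.26 ± 0.11 at 48 h. The large chilling change of EXLA1 is therefore one at 3 h, and it stands in the arrays labelled WT. At 48 h, EXPA8 was far below its 0 h level under both labels while EXLA1 was within 0.35 of its own.

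EXLA1 was higher in rdm4 than in WT at 0 h and 48 h and lower at 3 h, and the 2 groups did not overlap at any time. At 0 h it averaged 7.56 ± 0.08 in rdm4 and 5.98 ± 0.04 in WT (SD, n = 2 each), a difference of 1.58 ± 0.08 (SE). At 3 h it averaged 7.50 ± 0.02 in rdm4 and 9.62 ± 0.02 in WT, a difference of -2.12 ± 0.08, where 19.1% of probe sets were called lower and 17.6% higher. At 48 h it averaged 7.90 ± 0.13 in rdm4 and 6.07 ± 0.04 in WT, a difference of 1.84 ± 0.08. At that time 16.0% of probe sets were called higher and 19.0% lower. In terms of fold, EXLA1 was 2.98-fold higher in rdm4 at 0 h, 4.36-fold lower at 3 h and 3.57-fold higher at 48 h. With the 4 arrays at 3 h left out of the fit the difference at 48 h was the same.

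Genes known from roots moved over the same arrays as EXLA1 in part. Of 12 root markers listed, 4 were measured: PYK10, a beta-glucosidase of ER bodies, the gene AT5G17820, and the root hair expansins EXPA7 and EXPA18. In WT at 3 h, where 23.1% of probe sets were called higher, all 4 rose against 0 h, AT5G17820 by 3.28 ± 0.08 and PYK10 by 1.89 ± 0.06, and in rdm4 at 3 h 0 of 4 were called by limma, and 0 also at an unadjusted p under 0.05, with changes from -0.07 to -0.04. Between the genotypes all 4 were called higher in rdm4 at 0 h (16.1% of all probe sets), all 4 lower at 3 h (19.1%), and 1, EXPA7, higher at 48 h (16.0%). The calls of EXPA7 and EXPA18 at 0 h and that of EXPA7 at 48 h were each lost under at least 1 other setting. The summed log2 signal of the 4 was 28.22 to 28.29 in rdm4 and 24.55 to 24.65 in WT at 0 h, 27.99 to 28.09 in rdm4 and 30.97 to 31.13 in WT at 3 h, and 28.86 to 29.27 in rdm4 and 28.64 to 28.73 in WT at 48 h. At 48 h the difference between rdm4 and WT ran from -0.05 to 0.25 over the 4 markers, and that of EXLA1 was 1.84. The sum rests on 4 of the 12 listed markers. In group means EXPA7 lay between the 22.7th and the 33.2nd percentile of probe sets and EXPA18 between the 33.8th and the 40.5th. The part of the 4 root markers in the EXLA1 values was not tested.

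**Figure D2:**
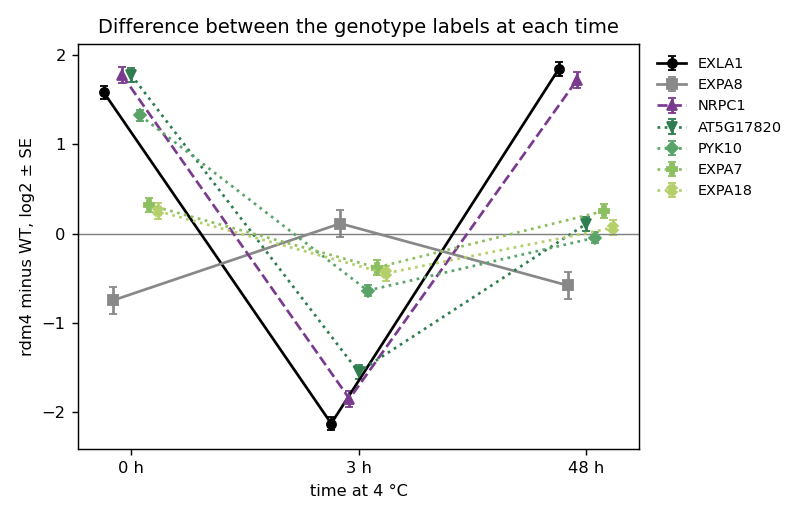
Difference in log2 signal between rdm4 and WT (y axis, rdm4 minus WT, bars SE) at 0, 3 and 48 h at 4 °C (x axis) for EXLA1, EXPA8, NRPC1 and the 4 measured root markers. EXLA1 and NRPC1 lie above 0 at 0 h and 48 h and below it at 3 h, with EXLA1 at 1.58, -2.12 and 1.84, and the root markers share the turn at 3 h but lie between -0.05 and 0.25 at 48 h.

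Put in order, the EXPA8 levels ran from WT at 0 h through rdm4 at 0 h, rdm4 at 3 h, WT at 3 h and WT at 48 h to rdm4 at 48 h. Of these neighbours only rdm4 and WT at 3 h, 0.11 apart, lay closer than the 0.15 that the fit gave as the spread of EXPA8 within groups. The gap between WT and rdm4 at 48 h, 0.58, was above that figure but the nearest arrays of the 2 groups were 5.27 and 5.18. The order for EXLA1 was WT at 3 h, rdm4 at 48 h, rdm4 at 0 h, rdm4 at 3 h, WT at 48 h and WT at 0 h. Here rdm4 at 0 h and at 3 h overlapped, and WT at 48 h and at 0 h were 0.09 apart with a spread of 0.08. The span between the highest and the lowest group was 4.98 for EXPA8 and 3.64 for EXLA1. Over the 12 arrays the 2 genes had r = -0.08 and rho = -0.49, given as a description of arrays that share groups.

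Of the other 33 expansin genes listed, 16 had a probe set of their own: 9 alpha-expansins, 4 beta-expansins and 3 expansin-like genes. At 3 h in rdm4, 2 of the 16 rose and 5 fell, with a median of -0.07 against -0.02 over all probe sets, where 17.1% rose and 22.9% fell. At 3 h in WT, 8 rose and 1 fell, with a median of 0.23 against -0.04 over all probe sets, where 23.1% rose and 23.7% fell. Of the 16, EXPB1, a beta-expansin, and EXLA2, an expansin-like A gene, rose under both labels, and EXPA4, EXPA20 and EXPB3 rose in WT and fell in rdm4. The calls of EXPA20 under both labels and of EXPB1 in WT were lost under at least 1 other setting.

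At 48 h in rdm4, 6 of the 16 rose and 5 fell, with a median of 0.07 against -0.01 over all probe sets, where 22.8% rose and 27.8% fell. This count of 11 dropped to 7 without rdm4 0 h replicate 1. At 48 h in WT, 7 rose and 0 fell by limma, with the same counts at an unadjusted p under 0.05, and with a median of 0.10 against -0.02 over all probe sets, where 24.6% rose and 25.8% fell. EXPA7, EXPA15, EXPA16, EXPA18 and EXLA2 rose under both labels, and EXPB3 rose in WT and fell in rdm4. The rises of EXPA7, EXPA15 and EXPA18 in rdm4, and that of EXPA16 in WT, were each lost under at least 1 other setting. The other 16 ranged at 48 h from -0.93 to 1.35 in rdm4 and from -0.20 to 1.54 in WT. None had a change as large as that of EXPA8, which was chosen for the size of its change.

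**Figure D3:**
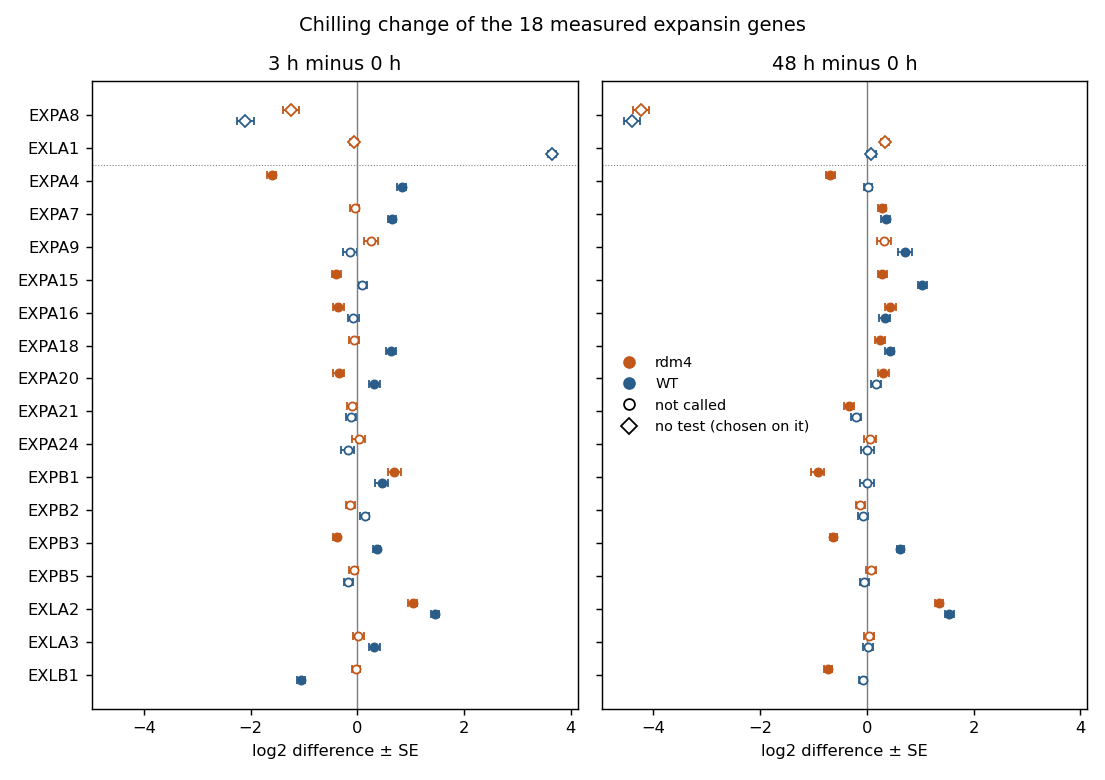
Log2 difference from 0 h (x axis, bars SE) at 3 h (left) and 48 h (right) for the 18 expansin genes with a probe set of their own (y axis), with rdm4 above WT in each line. Filled circles are called by limma, open circles are not, and diamonds mark EXPA8 and EXLA1, which were chosen by these changes. EXPA8 lies at -4.24 and -4.40 at 48 h, outside the range of -0.93 to 1.54 that holds the other 16.

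EXLA2 was called higher on chilling at both times under both labels. Its log2 signals in rdm4 were 6.201 and 5.996 at 0 h, 7.132 and 7.140 at 3 h, and 7.437 and 7.464 at 48 h. In WT they were 5.795 and 5.629 at 0 h, 7.132 and 7.202 at 3 h, and 7.266 and 7.246 at 48 h. All 8 chilled arrays stood above the 4 unchilled ones. At 3 h EXLA2 rose by 1.04 ± 0.08 in rdm4 (limma, adjusted p = 5.61e-07) and by 1.46 ± 0.08 in WT (adjusted p = 1.95e-08), and at 48 h by 1.35 ± 0.08 in rdm4 (adjusted p = 1.97e-08) and 1.54 ± 0.08 in WT (adjusted p = 6.22e-09). EXLA3, the gene next to EXLA1, was dim throughout, between 3.96 and 4.27 in group means, and of the comparisons with 0 h and between the labels it was called in 1, WT at 3 h, at 0.31 ± 0.10 (limma, adjusted p = 0.0214). Leaving out WT 0 h replicate 1 gave 0.22 and ended that call (adjusted p = 0.179), as did leaving out WT 3 h replicate 1, which gave 0.21 (adjusted p = 0.186).

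EXPA4 and EXLB1 differed between the labels in opposite directions at each time. EXPA4 averaged 9.50 ± 0.10 in rdm4 and 8.35 ± 0.06 in WT at 0 h, 7.89 ± 0.005 in rdm4 and 9.17 ± 0.13 in WT at 3 h, and 8.81 ± 0.001 in rdm4 and 8.36 ± 0.07 in WT at 48 h (SD, n = 2 each). Its differences between rdm4 and WT were 1.15, -1.28 and 0.45, all called, and so turned at 3 h as those of EXLA1 did. EXLB1, the expansin-like B gene, averaged 8.72 ± 0.01 in rdm4 and 9.28 ± 0.14 in WT at 0 h, 8.70 ± 0.03 in rdm4 and 8.23 ± 0.02 in WT at 3 h, and 8.00 ± 0.07 in rdm4 and 9.21 ± 0.03 in WT at 48 h. It was called lower in rdm4 at 0 h and 48 h, at -0.56 and -1.22, and higher at 3 h, at 0.47. Among all 16, 7 were called higher in rdm4 and 1 lower at 0 h, where 16.1% of all probe sets were higher and 13.7% lower. At 3 h 1 was higher and 5 lower, against 17.6% and 19.1% of all, and at 48 h 3 were higher and 5 lower, against 16.0% and 19.0%.

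The response itself differed between the labels for 8 of the 16 at 3 h, where 43.2% of all probe sets were called, and for 5 of the 16 at 48 h, where 22.2% were. Of the genes that were dim, EXPA21, EXPA24, EXPB5 and EXLA3 lay among the lowest 30% of probe sets in all 6 groups. EXPA24, EXPB2 and EXPB5 were called in none of the chilling and genotype comparisons by limma.

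Other wall genes were measured in part. XTH enzymes cut and rejoin xyloglucan, and of 9 measured XTH genes 3 rose and 0 fell in rdm4 at 3 h (17.1% and 22.9% of all probe sets), and 7 rose and 0 fell in WT by limma (23.1% and 23.7%). At 48 h 5 rose and 0 fell in rdm4 (22.8% and 27.8% of all), and 4 rose and 1 fell in WT (24.6% and 25.8%). These counts were equal at an unadjusted p under 0.05. XTH19 followed the order of EXLA1 in part, at 7.01 ± 0.11 in rdm4 and 4.59 ± 0.21 in WT at 0 h, 7.01 ± 0.16 in rdm4 and 9.79 ± 0.03 in WT at 3 h, and 8.63 ± 0.14 in rdm4 and 7.15 ± 0.06 in WT at 48 h. Unlike EXLA1, XTH19 remained higher at 48 h than at 0 h in WT, by 2.56 ± 0.11 (limma, adjusted p = 1.09e-09). XTH18 rose by 5.07 in rdm4 and by 1.33 in WT at 48 h, and XTH32 by 1.28 in rdm4 and 0.70 in WT. At 0 h XTH18 was among the dimmest 30% of probe sets under both labels and XTH19 in WT, so the sizes of their changes from these levels are uncertain.

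Of 8 pectin methylesterase genes listed, 3 were measured. These enzymes strip methyl groups from pectin. AT3G49220 rose at both times under both labels, by 0.53 at 3 h and 1.03 at 48 h in rdm4 and by 0.82 at 3 h and 0.81 at 48 h in WT. ATPMEPCRB fell by 1.51 in WT at 48 h and was at -0.17 in rdm4, where it was not called. PME61 was at -0.60 at 3 h and -0.39 at 48 h in WT and at 0.52 at 3 h in rdm4, all called. At 48 h in rdm4 PME61 was not called. Of the 28 growth hormone genes listed, IAA29 alone was measured, which encodes a repressor of auxin signalling. It rose by 1.02 in rdm4 and fell by 0.63 in WT at 3 h and was not called at 48 h. None of the 10 cellulose synthase genes had a probe set of its own in the annotation used here.

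The genes whose pattern was most like that of each expansin were found by Pearson's r of the log2 signal over the 12 arrays, among 2951 named probe sets whose group means span at least 1. For EXPA8 they were SP1L3, which encodes a SPIRAL1-like protein of a family tied to microtubules, at r = 0.995, AT3G48200 at 0.995, AT1G80180 at 0.993, and AT1G74070 and AT2G35820 at 0.992. All 5 were highest at 0 h and lowest at 48 h under both labels. AT1G80180 was at 9.49 in rdm4 and 9.81 in WT at 0 h, 8.70 in rdm4 and 8.72 in WT at 3 h, and 6.57 in rdm4 and 7.15 in WT at 48 h, and its span of 3.25 was the widest of the 5, against 4.98 for EXPA8.

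For EXLA1 the likeness was lower. AT2G28510 had r = 0.977, AT2G29995 0.963, AT3G26960 0.956, AT1G52060 0.942 and AT2G26690, the NRT1/PTR family gene NPF6.2, 0.940. All 5 were highest in WT at 3 h and lowest in WT at 0 h. AT2G28510 was at 8.18 in rdm4 and 7.43 in WT at 0 h, 8.05 in rdm4 and 8.77 in WT at 3 h, and 8.30 in rdm4 and 7.65 in WT at 48 h. Its span was 1.34 against 3.64 for EXLA1. These genes were picked for their likeness, so the r values describe the choice and carry no test.

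**Figure D4:**
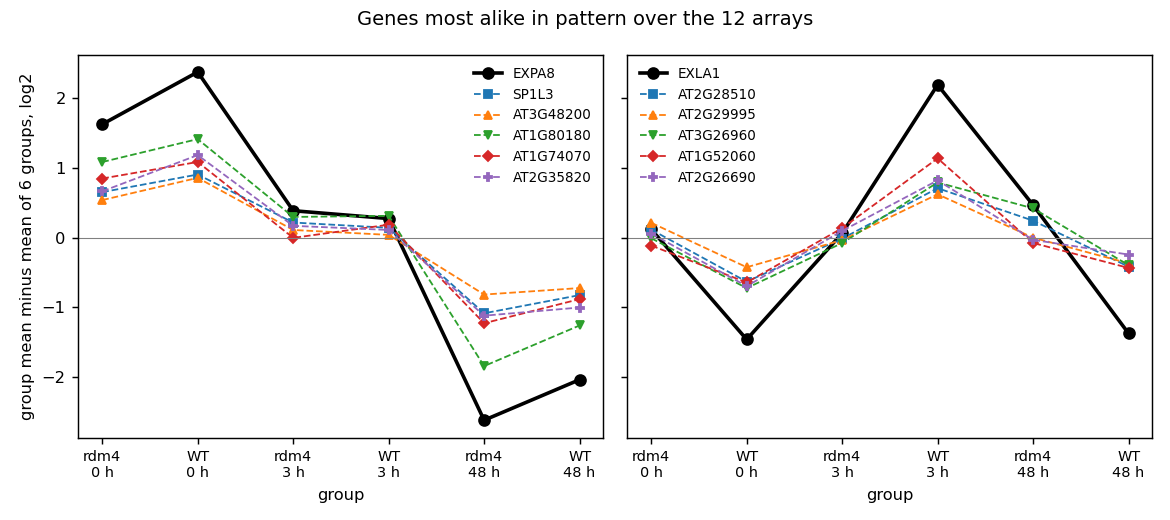
Group mean of the log2 signal minus the mean of the 6 groups (y axis) in each group (x axis, rdm4 left of WT at each time) for EXPA8 with its 5 most alike genes (left) and for EXLA1 with its 5 (right). The solid line is the expansin and dashed lines are the others, which run over narrower spans, 3.25 at most on the left against 4.98 for EXPA8.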

How the data were processed

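Gene expression was measured on 1 Affymetrix array per sample. The deposited values are on a log2 scale, as judged from their range and from array medians of 6.34 to 6.43. The authors' summarisation and normalization steps were not given in the sources used here, and no further normalization was applied. Of 22810 probe sets, 64 controls were left out. The platform annotation pairs 13513 of the other 22746 with 1 gene and 503 with several, which stay unnamed here, and current symbols came from the RefSeq table by gene number for 13286 genes. With limma 3.58.1 (R 4.3.3), all 12 arrays entered 1 model with a mean per group (lmFit, eBayes, 6 residual and 5.97 prior degrees of freedom), and the fit was tested on simulated data. Calls are at a Benjamini-Hochberg adjusted p under 0.05. SE is that of the fit. Percentiles rank group means or arrays over all 22746 probe sets.

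The 2 genes, the gene lists and the tests were chosen with earlier results of these data known. Named are EXPA8, EXLA1, every measured expansin, NRPC1, the measured markers, up to 4 called and 2 uncalled genes of each other list, and the 5 most alike genes of each expansin. Labels describe 2 biological replicates from different growth chambers. The number of arrays limits the precision.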

Additional observations from a re-analysis of the deposited data

Results flagged for a closer look

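No group has enough arrays for a search for outlying arrays. The chilling response of several other expansin genes differed between rdm4 and WT when the difference itself was tested (limma, adjusted p under 0.05). These were 8 of the 16 at 3 h, where 43.2% of all probe sets were called, and 5 of the 16 at 48 h, where 22.2% were. Values are the rdm4 response minus the WT response on the log2 scale. At 3 h, EXPA4 was at -2.43 ± 0.12 (SE), from a response of -1.61 in rdm4 and 0.83 in WT. EXPA7 was at -0.70, EXPA15 at -0.49, EXPA18 at -0.69, EXPA20 at -0.67, EXPB3 at -0.75 and EXLA2 at -0.42, and EXLB1 was at 1.03, from -0.02 in rdm4 and -1.05 in WT. These 3 h values depend on the genotype labels of the 3 h arrays, where the sign of many genotype differences turned. At 48 h, EXPB3 was at -1.26 ± 0.09, from -0.63 in rdm4 and 0.63 in WT. EXPA4 was at -0.70, EXPA15 at -0.75, EXPB1 at -0.93 and EXLB1 at -0.66.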

How the results depend on the processing

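Besides the reported fit, 7 other settings and 12 fits that leave out 1 array each were run. The alternative probe set planned for each gene could not be run, as each gene has 1. When single arrays were left out, the genotype difference of EXLA1 at 48 h ranged from 1.74 to 1.93. That of EXPA8 ranged from -0.752 to -0.743 at 0 h and from 0.103 to 0.12 at 3 h. Under the other settings EXPA8 at 3 h ranged from 0.112 to 0.171 (there is no value without the 3 h arrays). EXPA8 at 48 h was at -0.58 in the fit of the compared arrays alone and ranged from -0.83 to -0.33 when single arrays were left out. When single arrays were left out, the 48 h change of EXPA8 ranged from -4.49 to -3.99 in rdm4 and from -4.64 to -4.17 in WT, and that of EXLA1 in rdm4 from 0.25 to 0.44. Counts of other expansins called stayed within 1.5 times, except in rdm4 at 48 h, where the 11 became 7 to 11 when single arrays were left out and 9 to 12 under the other settings. Of 56 calls of other expansins, 38 held under every setting that could be computed and 0 changed sign. The 18 lost somewhere were 5 of EXPA20, 3 of EXPA7, 2 each of EXPA15, EXPA16 and EXPA18, and 1 each of EXPA21, EXPB1, EXPB3 and EXLA3. Without the dimmest 30% of probe sets 10 of the 16 were left. No label ties a replicate number to a chamber shared by groups, and deviations of same-numbered arrays correlated above 0.1 in 4 of 15 pairs of groups (range -0.15 to 0.27), so the numbers were not taken to pair samples. With a replicate block the genotype difference of EXPA8 was at -0.75 at 0 h and -0.58 at 48 h, and that of EXLA1 at 48 h was at 1.84. Signal over background was not measured.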
